A study of Mus musculus with 24 samples.

Results

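Nonmuscle myosin II is the motor that blebbistatin blocks, and 10 genes of its chains and activating kinases were followed here across both cell types of the mouse ovarian follicle. They were chosen by name, as the rows of the deposited count tables with the symbols Myh9, Myh10, Myh14, Myl6, Myl9, Myl12a, Myl12b, Mylk, Rock1 and Rock2, and make up 10 of the 78298 genes in those tables. Transcripts were measured by RNA sequencing in primary cells of wild-type mice. Follicles sat in alginate, a seaweed polysaccharide gel, and grew in serum-containing medium with insulin, transferrin, selenium and follicle stimulating hormone at 50 mIU/ml. Ages of the mice are not given in the labels.

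The 6 groups of 4 libraries were oocytes from follicles with blebbistatin at 20 µM, oocytes with dextran at 10 kPa and oocytes of control follicles, and granulosa cells of the same 3 treatments. All cells were collected on day 3 from follicles that had grown past 180 µm. Blebbistatin is a small molecule that holds the myosin II head in a state that binds actin weakly. Dextran is a polymer that the label grades by pressure, in kPa. Each oocyte library held 1 to 2 oocytes, and each granulosa library held a pool of cells separated by hand from the oocyte. Whether a blebbistatin solvent was added to the control medium is not stated in the labels.

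Each myosin II molecule is built from a pair of heavy chains, which carry the motor domain, and a pair each of essential and regulatory light chains. Phosphorylation of the regulatory light chain by myosin light chain kinase or by the kinases Rock1 and Rock2 switches the motor on and lets it assemble into filaments, while myosin phosphatase switches it off. In the ovary, this contractile system divides cells, sets the stiffness of the oocyte cortex and gives the theca and stroma around the follicle their contractility. The counts measure transcripts, not protein, light chain phosphorylation or motor activity.

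The deposited tables held estimated counts, with totals of 16432300 to 22431000 per granulosa library and 14244100 to 18399600 per oocyte library. Levels are depth-normalised counts (CPM) on TMM-scaled library totals, given as mean ± SD of 4 libraries. A log2 change is the fitted difference with its standard error (SE), and a gene was called when its edgeR quasi-likelihood p, adjusted by Benjamini-Hochberg over all genes tested, was under 0.05. Replicates are called biological in the labels, with no word on separate animals or cultures, so the p-values measure only the spread between these libraries, which may in part be technical. In oocyte libraries 12 oocyte markers summed to 13800 to 22600 CPM, against 4.93 to 31 CPM in granulosa libraries. The 11 granulosa markers summed to 154 to 657 CPM in 11 oocyte libraries and to 10600 to 21300 CPM in granulosa libraries. The oocyte library labelled control replicate 2 stood apart, with 2400 CPM of granulosa markers, or 13.2% of the mean of control granulosa cells, against 0.844 to 3.60% in the other oocyte libraries.

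The 3 regulatory light chain genes are near copies of each other, which bears on how their reads can be assigned. Their first 90 coding bases, read from GENCODE M21 transcripts, are shown 5′ to 3′ with capitals at the 14 positions where the 3 genes are not all alike. Myl9 lies on chromosome 2, and Myl12a and Myl12b lie on chromosome 17.
Myl9: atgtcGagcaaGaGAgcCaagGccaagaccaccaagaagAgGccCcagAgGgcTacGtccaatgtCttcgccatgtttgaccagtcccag
Myl12a: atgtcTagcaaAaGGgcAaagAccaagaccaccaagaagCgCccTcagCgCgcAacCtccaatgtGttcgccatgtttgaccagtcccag
Myl12b: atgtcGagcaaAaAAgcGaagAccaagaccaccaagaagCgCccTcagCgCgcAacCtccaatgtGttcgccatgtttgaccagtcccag

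Myl12a and Myl12b differed at 4 of these 90 positions, Myl12a and Myl9 at 13, and Myl12b and Myl9 at 12. Over the whole coding sequence of 516 bases, Myl12a and Myl12b were 96.5% identical, Myl9 and Myl12a 85.7%, and Myl9 and Myl12b 86.4%. Of the 31-base words in their transcripts, Myl12a shared 20.1% of its own with Myl12b, while Myl9 shared 5 words with each of the other two. The counting model can therefore move reads between Myl12a and Myl12b, and their separate levels are uncertain to that extent, whereas Myl9 is set apart by most of its sequence.

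Oocytes of control follicles differed from granulosa cells of the same treatment in the 8 genes that passed the low-count filter in both cell types. Of these, Rock1 was higher in oocytes and the others were lower. Myh14, higher in oocytes, and Myl9, lower, passed only through the cell type where they are high, so their calls are not counted. Differences between the cell types were the rule, since 77.3% of the 20601 genes tested were called in this comparison (44.4% higher and 32.9% lower in oocytes). All 8 called is therefore not far from the background, which holds genes of both kinds. The median log2 change of all 10 genes, Myh14 and Myl9 included, was -2.05, beside 0.41 over all genes tested. Scaling shifts this comparison as a whole, with a median over all genes of 0.48 under DESeq2-style (RLE) size factors and 0.06 with unscaled totals. Each of the 10 genes but Myl9 kept its direction under both. The log2 change of Myl9 was not followed there, and its count was 0 in all control oocyte libraries. In control follicles the libraries of the 2 cell types did not overlap for any of the 8 genes that passed in both, as for 76.3% of all genes tested. Fewer cells of a type and less RNA per cell cannot be told apart in bulk libraries, so these are differences per unit of sequenced RNA.

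**Figure D1:**
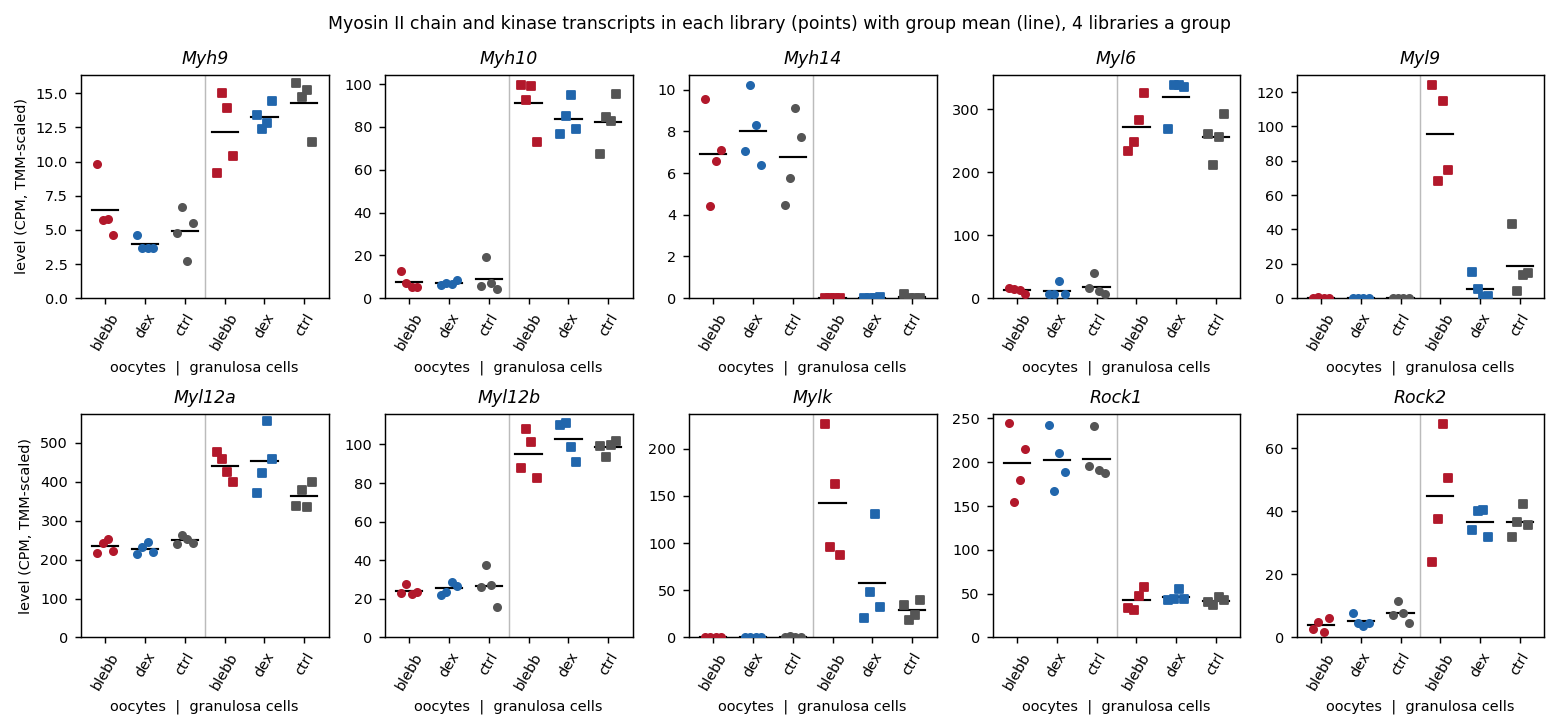
Level of each of the 10 genes in every library, in CPM on the TMM-scaled total, with the group mean of 4 libraries as a line; blebb is blebbistatin, dex is dextran and ctrl is control, with oocytes (circles) left and granulosa cells (squares) right of the grey line. Rock1 and Myh14 are the genes with oocyte points above granulosa points, and Mylk and Myl9 have their highest points in blebbistatin granulosa cells.

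Among the heavy chains, Myh10 (ENSMUSG00000020900), which encodes nonmuscle myosin IIB, was the main transcript of granulosa cells. It stood at 12.8, 7.27, 5.13 and 5.13 CPM in blebbistatin oocytes, 5.96, 7.01, 6.52 and 8.44 CPM in dextran oocytes and 5.66, 19.2, 6.94 and 4.26 CPM in control oocytes. In granulosa cells Myh10 stood at 99.7, 92.6, 99.0 and 73.2 CPM with blebbistatin, 76.5, 84.9, 94.7 and 79.2 CPM with dextran and 67.3, 84.4, 82.8 and 95.4 CPM in controls. All 12 oocyte libraries lay below all 12 granulosa libraries, and the highest oocyte library was control replicate 2. Myh10 averaged 9.02 ± 6.88 CPM in control oocytes and 82.5 ± 11.6 CPM in control granulosa cells (n = 4 each), a log2 change of -3.19 ± 0.37 (edgeR adjusted p = 1.33e-07). Without oocyte control replicate 2 the log2 change was -3.91.

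Myh14 (ENSMUSG00000030739), which encodes nonmuscle myosin IIC, was in effect an oocyte transcript in these libraries. It stood at 9.55, 4.43, 6.56 and 7.09 CPM in blebbistatin oocytes, 7.06, 10.2, 8.31 and 6.39 CPM in dextran oocytes and 4.47, 5.75, 9.12 and 7.71 CPM in control oocytes. The 12 oocyte libraries held 56 to 153 Myh14 counts each. In granulosa cells 10 of 12 libraries were at 0, with 5 counts in control replicate 1 and 1 count in dextran replicate 4. The fitted log2 change in oocytes over granulosa cells was 6.78 ± 0.86. It was 9.88 without granulosa control replicate 1, where the control granulosa libraries were all at 0 and the fitted size rests on the prior count.

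Myh9 (ENSMUSG00000022443), which encodes nonmuscle myosin IIA, was the weakest of the differences among heavy chains. It averaged 6.49 ± 2.28 CPM in blebbistatin oocytes, 3.94 ± 0.480 CPM in dextran oocytes and 4.93 ± 1.67 CPM in control oocytes. In granulosa cells it averaged 12.1 ± 2.79 CPM with blebbistatin, 13.3 ± 0.904 CPM with dextran and 14.3 ± 1.94 CPM in controls. The log2 change in control oocytes over control granulosa cells was -1.53 ± 0.29 (edgeR adjusted p = 7.18e-05). Across treatments the cell types overlapped for Myh9, since blebbistatin oocyte replicate 1 at 9.82 CPM lay above blebbistatin granulosa replicate 1 at 9.15 CPM.

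The make-up of the heavy chain counts therefore differed between the cell types. The summed heavy chain counts are those of Myh9, Myh10 and Myh14, and leave out Myh11, smooth muscle myosin heavy chain. Myh11 averaged 25.6 ± 4.77 CPM in control oocytes, a higher CPM than any of these genes, and 0.688 ± 0.407 CPM in control granulosa cells. These CPM, and all shares of counts given below, are not corrected for transcript length. Counting Myh11 would lower every share in oocytes. Myh10 gave 40.1 ± 15.1% of the summed heavy chain counts in control oocytes and 84.9 ± 3.48% in control granulosa cells (n = 4 each). Myh14 gave 35.2 ± 13.8% in control oocytes and 0.0638% in control granulosa cells. The ratio of Myh10 to Myh9 counts, which does not depend on library scaling, was 0.773 to 2.87 in control oocytes and 4.28 to 8.37 in control granulosa cells. It was 0.889 to 1.31 in blebbistatin oocytes and 1.27 to 2.28 in dextran oocytes, both within the control oocyte range. In granulosa cells it was 6.15 to 10.9 with blebbistatin and 5.47 to 7.41 with dextran, both overlapping the controls.

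**Figure D2:**
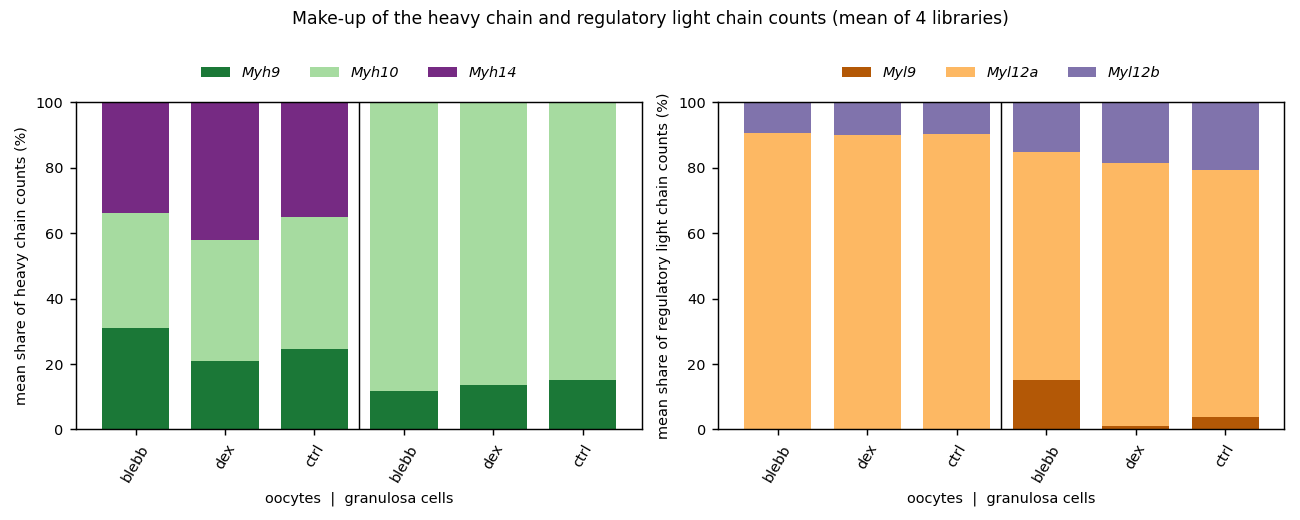
Mean share of each gene in the summed heavy chain counts (left panel) and the summed regulatory light chain counts (right panel), in percent, over 4 libraries per group; blebb is blebbistatin, dex is dextran and ctrl is control, oocytes left and granulosa cells right of the line. Heavy chain counts are those of Myh9, Myh10 and Myh14, without Myh11. Of these, Myh14 takes 35.2% in control oocytes and almost none in granulosa cells. Myl9 takes 15.0% of regulatory light chain counts in blebbistatin granulosa cells.

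The essential light chain Myl6 (ENSMUSG00000090841), which sits on the lever arm of the heavy chain, was lower in oocytes. It stood at 16.5, 14.9, 13.3 and 6.58 CPM in blebbistatin oocytes, 6.18, 6.67, 26.7 and 5.99 CPM in dextran oocytes and 15.5, 40.2, 10.8 and 6.14 CPM in control oocytes. In granulosa cells it averaged 273 ± 40.9 CPM with blebbistatin, 320 ± 34.6 CPM with dextran and 256 ± 33.4 CPM in controls, with the lowest library at 212 CPM. The log2 change in control oocytes over control granulosa cells was -3.82 ± 0.51 (edgeR adjusted p = 1.15e-06), and -4.62 without oocyte control replicate 2.

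Of the regulatory light chains, Myl12a (ENSMUSG00000024048) was the main transcript of both cell types. It averaged 234 ± 17.3 CPM in blebbistatin oocytes, 228 ± 14.1 CPM in dextran oocytes and 250 ± 10.7 CPM in control oocytes, and 439 ± 33.6, 452 ± 78.8 and 362 ± 31.8 CPM in blebbistatin, dextran and control granulosa cells. Its log2 change in control oocytes over control granulosa cells, -0.54 ± 0.11 (edgeR adjusted p = 0.000126), was the smallest in size of the 10. Myl12b (ENSMUSG00000034868) averaged 24.2 ± 2.5, 25.4 ± 2.93 and 26.9 ± 8.87 CPM in blebbistatin, dextran and control oocytes. In granulosa cells it averaged 95 ± 11.7, 103 ± 9.72 and 98.5 ± 3.49 CPM under the same treatments, and the log2 change between control cell types was -1.87 ± 0.18 (edgeR adjusted p = 8.62e-09). The count ratio of Myl12a to Myl12b was 6.99 to 15.1 in control oocytes and 3.35 to 4.05 in control granulosa cells, with no overlap.

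Myl9 (ENSMUSG00000067818), the regulatory light chain that smooth muscle shares with nonmuscle cells, was listed at 0 in 11 of 12 oocyte libraries, with 7 counts (0.509 CPM) in blebbistatin replicate 2. It averaged 18.8 ± 16.8 CPM in control granulosa cells (n = 4). A count of 0 allows up to 3 counts in a library, or 0.163 to 0.204 CPM of the unscaled total in control oocytes. Set against the upper end of that limit, the mean of control granulosa cells, 21.0 CPM of the unscaled total, was 103-fold higher. Control granulosa replicate 1 raised that mean, since the 4 libraries stood at 48.0, 4.46, 15.0 and 16.6 CPM of the unscaled total. The fold thus describes the mean and is not a lower bound for each library. Intervals and limits of this kind cover counting error only.

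The activating kinases split between the cell types. Rock1 (ENSMUSG00000024290), one of a pair of related kinases that act on the regulatory light chain, stood at 245, 154, 180.3 and 215 CPM in blebbistatin oocytes, 242, 167, 210.5 and 189 CPM in dextran oocytes and 195, 242, 191 and 188 CPM in control oocytes. In granulosa cells it averaged 42.3 ± 12.3 CPM with blebbistatin, 46.1 ± 6.09 CPM with dextran and 41.7 ± 4.22 CPM in controls, with the highest library at 57.4 CPM. Rock1 was 4.90-fold higher in control oocytes than in control granulosa cells, a log2 change of 2.29 ± 0.19 (edgeR adjusted p = 7.20e-10). Rock2 (ENSMUSG00000020580), the other kinase of the pair, ran the other way. It averaged 7.78 ± 2.87 CPM in control oocytes and 36.5 ± 4.35 CPM in control granulosa cells (n = 4 each), a log2 change of -2.23 ± 0.37 (edgeR adjusted p = 1.93e-05). The count ratio of Rock2 to Rock1 was 0.00949 to 0.0479 over all 12 oocyte libraries and 0.713 to 1.43 over the 12 granulosa libraries.

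Mylk (ENSMUSG00000022836), the calmodulin-dependent myosin light chain kinase, was scarce in oocytes. It averaged 0.593 ± 0.559 CPM in control oocytes and 29.1 ± 9.93 CPM in control granulosa cells (n = 4 each), a 48.1-fold lower level and a log2 change of -5.59 ± 0.73 (edgeR adjusted p = 6.87e-07). The highest oocyte library was control replicate 2 at 1.42 CPM, and without it the log2 change was -6.48. Rock1 thus gave 96.1 ± 1.03% of the summed counts of the 3 kinases in control oocytes and 38.9 ± 2.24% in control granulosa cells.

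Granulosa RNA in oocyte libraries was gauged for the genes that were lower in oocytes by setting each oocyte level as a percentage of the mean in control granulosa cells. Granulosa markers stood at 0.844 to 3.60% in 11 oocyte libraries and 13.2% in control replicate 2. Myl12b stood at 16.3 to 38.3%, Rock2 at 4.68 to 31.7%, Myh10 at 5.17 to 23.3% and Myl6 at 2.35 to 15.7%, and each of these 4 genes lay above the marker percentage in every oocyte library. Myl12a stood at 58.9 to 72.7% and Myh9 at 19.1 to 68.7%, also above the markers in every library. Mylk stood at 0 to 4.88% and lay below the markers in 7 libraries, among them control replicate 2. Myl9 lay below them in 11 libraries, all at 0%, control replicate 2 included. Dextran oocyte replicate 3 had 10.5% for Myl6 with granulosa markers at 1.13%. The part of granulosa RNA in these oocyte levels was not tested.

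**Figure D3:**
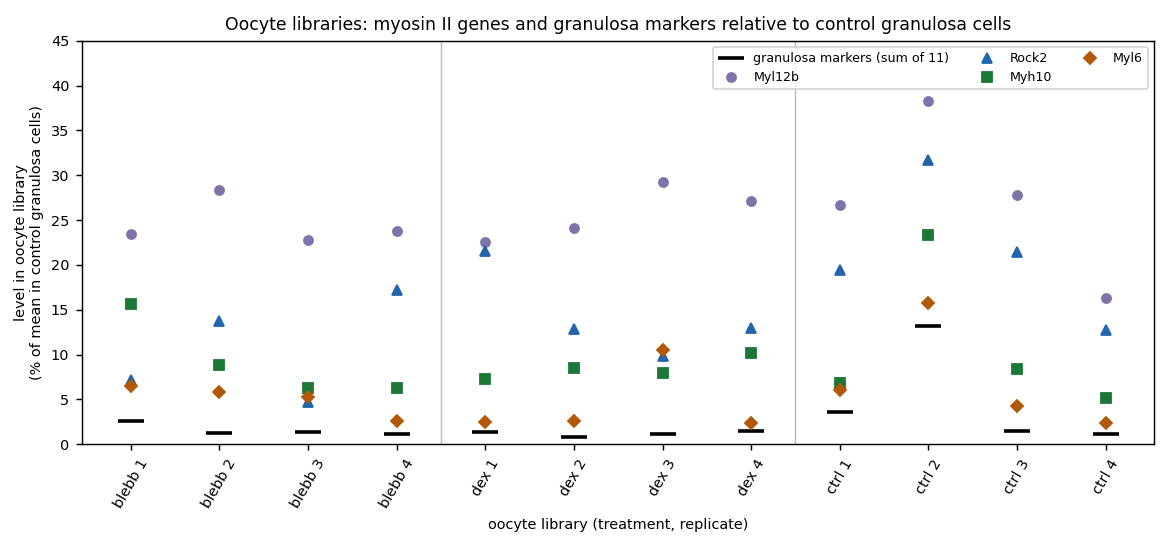
Level of 4 genes and of the summed granulosa markers (black bars) in each of the 12 oocyte libraries, as a percentage of the mean of control granulosa cells; blebb is blebbistatin, dex is dextran and ctrl is control. Control replicate 2 has the highest percentage of markers (13.2%) and of all 4 genes, and in every library the 4 genes lie above the marker bar.

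Levels of different genes can be set side by side only per transcript length, here CPM per kb of a chosen coding transcript in GENCODE M21. For each gene this was the transcript with the longest coding sequence among those tagged there as principal (APPRIS). It was not always the longest transcript, since for Myl6 it had 665 bases and the longest coding transcript had 1668. In control oocytes the order was Myl12a (129 CPM per kb), Rock1 (31.7), Myl6 (27.3), Myl12b (12.5), Myh10 (1.16), Myh14 (1.06), Rock2 (1.02), Myh9 (0.663), Mylk (0.0758) and Myl9 (0). The neighbours Rock1 and Myl6, Myl6 and Myl12b, and all of Myh10, Myh14, Rock2 and Myh9, lay within their SDs of each other. In control granulosa cells the order was Myl6 (384 CPM per kb), Myl12a (187), Myl12b (46.0), Myl9 (16.6), Myh10 (10.6), Rock1 (6.47), Rock2 (4.78), Mylk (3.72), Myh9 (1.92) and Myh14 (0.00831). There Myl9 and Myh10, and Rock2 and Mylk, lay within their SDs of each other. The order depends on the length used, since per coding kb Myl12a at 702 stood above Myl6 at 564 in control granulosa cells.

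With blebbistatin, no gene of the 10 was called in granulosa cells, where 1 of 15370 genes tested was called (0.00651%). Myh14 did not pass the filter on low counts, so 9 of the 10 were tested. Of these 9, 7 had a positive log2 change, with a median of 0.14 beside -0.05 over all genes tested. An unadjusted p under 0.05 was found for Mylk, Myl9 and Myl12a, 3 of 9, where 10.4% of all genes had one. The same 3 had all blebbistatin libraries above all controls, as did 2.53% of all genes tested (6.62% did not overlap in either direction).

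Mylk had the smallest p of the 9, rank 92 among the 15370 genes. It stood at 226, 95.6, 163 and 87.7 CPM in blebbistatin granulosa cells and at 34.8, 18.5, 23.4 and 39.9 CPM in controls. Every blebbistatin library lay above every control, and replicate 1 was the highest. The means were 143 ± 64.7 CPM with blebbistatin and 29.1 ± 9.93 CPM in controls (n = 4 each), and the log2 change of 2.29 ± 0.53 did not pass (edgeR unadjusted p = 0.00104, adjusted p = 0.173). DESeq2 called it with an adjusted p of 0.000694, and the adjusted p ran up to 0.494 over 17 alternatives.

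Myl9 stood at 124, 68.3, 115 and 74.6 CPM in blebbistatin granulosa cells and at 42.95, 4.075, 13.3 and 14.8 CPM in controls. The groups did not overlap, and control replicate 1 was the highest control. The means were 95.4 ± 28.0 CPM with blebbistatin and 18.8 ± 16.8 CPM in controls (n = 4 each), and the log2 change of 2.34 ± 0.83 did not pass (edgeR unadjusted p = 0.0152, adjusted p = 0.346). It was 3.17 without control replicate 1. Myl9 gave 15.0 ± 3.57% of the regulatory light chain counts in blebbistatin granulosa cells and 3.92 ± 3.51% in controls.

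Myl12a stood at 475, 458, 425 and 400.1 CPM in blebbistatin granulosa cells and at 337, 379, 334 and 399 CPM in controls, with the lowest blebbistatin library just above the highest control. Its log2 change of 0.27 ± 0.12 did not pass (edgeR unadjusted p = 0.0412, adjusted p = 0.450). The count ratio of Myl12a to Myl12b was 4.19 to 5.41 in blebbistatin granulosa cells and 3.35 to 4.05 in controls, with no overlap. In dextran granulosa cells it was 3.36 to 5.65, overlapping the controls. Reads can move between Myl12a and Myl12b, and how often ratios of other gene pairs separate was not tested. The heavy chains with blebbistatin showed log2 changes of -0.24 ± 0.23 for Myh9 and 0.14 ± 0.13 for Myh10, with 95% intervals of -0.69 to 0.21 and -0.13 to 0.40. Intervals were -0.36 to 0.40 for Rock1 and -0.21 to 0.79 for Rock2.

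Each blebbistatin library also had a higher summed level of smooth muscle markers, and of stroma markers, than 3 of the 4 controls, and the groups overlapped for both sums. The 8 smooth muscle markers (Acta2, Tagln, Myh11, Cnn1, Des, Lmod1, Actg2 and Synm) summed to 641, 136, 399 and 168 CPM in blebbistatin granulosa cells and to 209, 34.4, 53.0 and 59.2 CPM in controls. With blebbistatin most of the sum was Acta2, smooth muscle actin, at 434, 92.5, 250 and 114 CPM, against 133, 12.9, 26.9 and 20.5 CPM in controls. Tagln stood at 20.1 to 67.3 CPM with blebbistatin and 1.87 to 22.9 CPM in controls. Actg2 stood at 4.34 to 63.7 CPM with blebbistatin and 0.53 to 17.3 CPM in controls. Lmod1 stood at 0.636 to 17.2 CPM with blebbistatin and 0.244 to 3.1 CPM in controls. The groups overlapped for each of these markers. Synm, Cnn1 and Des did not follow Acta2. Synm stood at 20.6, 16.3, 11.6 and 6.69 CPM with blebbistatin and at 18.6, 17.6, 14.6 and 31.2 CPM in controls. Cnn1 was highest in a control library, at 12.4 CPM, against at most 10.5 CPM with blebbistatin. The defining marker Myh11, smooth muscle myosin heavy chain, was at 28.1, 0, 11.3 and 10.8 CPM with blebbistatin and at 0.244 to 1.19 CPM in controls, and Des was at 0 in blebbistatin replicates 1 and 4. The 11 theca and stroma markers summed to 1040, 298, 761 and 311 CPM with blebbistatin and to 220.0, 24.8, 52.9 and 352 CPM in controls. Among them Dcn was highest in a control library, at 20.3 CPM, against at most 12.3 CPM with blebbistatin. Cyp17a1 reached at most 0.53 CPM with blebbistatin and 0.892 CPM in controls. All blebbistatin libraries lay above all controls for 4 of these 11 markers and for 0 of the 8 smooth muscle markers, beside 2.53% of all genes tested. The 4 were the collagens Col1a1 (87.4 to 408 CPM with blebbistatin and 2.69 to 85.5 CPM in controls) and Col1a2, the receptor Pdgfra and the transcription factor Tcf21. Pdgfra stood at 15.2 to 24.7 CPM with blebbistatin and 1.10 to 12 CPM in controls, and Tcf21 at 4.29 to 28.0 CPM with blebbistatin and 0.0815 to 3.03 CPM in controls. The 6 immune markers summed to 496 and 749 CPM in blebbistatin replicates 1 and 2 and to at most 9.16 CPM in the other granulosa libraries. Granulosa markers were lower, at 10600 to 13700 CPM with blebbistatin and 16500 to 21300 CPM in controls, and mitochondrially encoded transcripts took 3.86 to 9.53% of counts with blebbistatin and 2.60 to 4.52% in controls. Between 14538 and 21042 genes were detected with blebbistatin and between 20730 and 24297 in controls.

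Blebbistatin replicate 1, the highest library for Mylk and Myl9, also stood apart from its group, with 14538 genes detected and a chi-square per gene of 124 to 137 against the other 3, which differed by 43.2 to 70 among themselves. Without it the log2 change was 2.00 for Mylk and 2.21 for Myl9, and neither passed the edgeR test. Without blebbistatin replicates 1 and 3, which had the most smooth muscle marker counts, the log2 change was 1.67 for Mylk and 1.94 for Myl9 (edgeR adjusted p = 0.395 and 0.532), a setting chosen after the data were seen. The part of other cells in the levels of Mylk and Myl9 was not tested further.

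**Figure D4:**
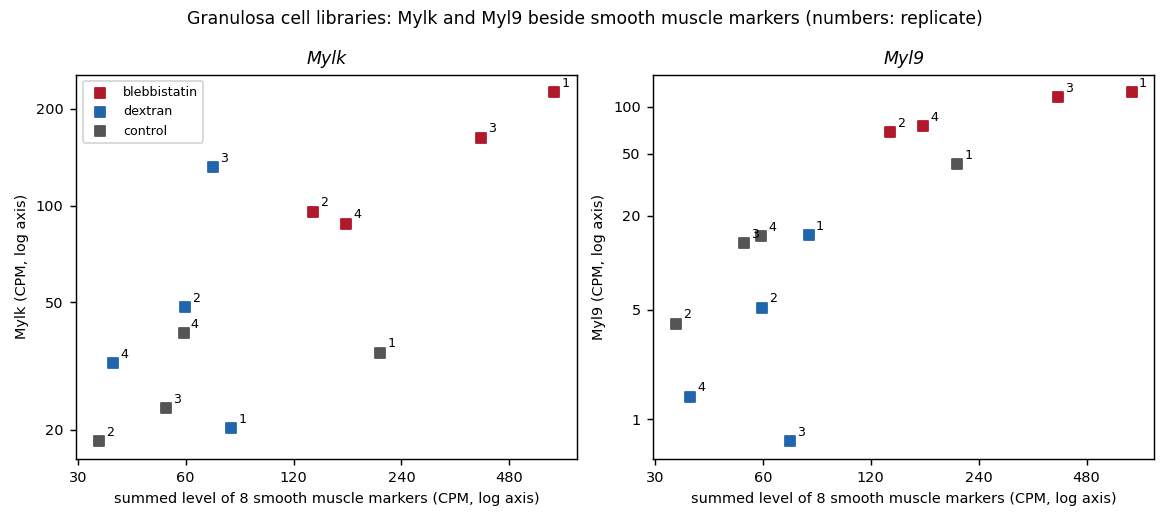
Level of Mylk (left panel) and Myl9 (right panel) in each of the 12 granulosa libraries against the summed level of 8 smooth muscle markers, all in CPM on log axes, with replicate numbers beside the points. Blebbistatin libraries hold the highest Myl9 levels and marker sums of 136 to 641 CPM. Mylk in dextran replicate 3 reaches 131 CPM at a marker sum of 71.6 CPM, of which 50.1 CPM is Synm.

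With dextran, no gene of the 10 was called in granulosa cells either, and 0 of the 15370 genes were called by edgeR (0%; 523 at an unadjusted p under 0.05, and 42 by DESeq2). The dextran and blebbistatin comparisons share their 4 control libraries. No gene of the 9 tested had dextran libraries all above or all below the controls, beside 4.79% of all genes. Myl6 and Myl12a, 2 of 9, had an unadjusted p under 0.05, where 3.40% of all genes had one. Myl6 stood at 269, 339, 338 and 336 CPM with dextran and at 261, 212, 256 and 293 CPM in controls, a log2 change of 0.34 ± 0.13 (edgeR adjusted p = 1.00). Myl12a stood at 370.0, 423.5, 557 and 458 CPM with dextran and at 337, 379, 334 and 399 CPM in controls, a log2 change of 0.33 ± 0.12 (edgeR adjusted p = 1.00).

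Myl9 and Mylk had log2 changes of opposite sign with dextran, neither of which passed, and overlapped the controls. Myl9 stood at 15.0, 5.18, 0.723 and 1.39 CPM with dextran, against 42.95, 4.075, 13.3 and 14.8 CPM in controls, a log2 change of -1.74 ± 0.83 (edgeR unadjusted p = 0.0568). That change was -2.94 without dextran replicate 1 and -0.93 without control replicate 1. Mylk stood at 20.2, 48.2, 131 and 32.2 CPM with dextran, against 34.8, 18.5, 23.4 and 39.9 CPM in controls, a log2 change of 1.00 ± 0.52 (edgeR unadjusted p = 0.0757) that was 0.22 without dextran replicate 3. That library joined the highest Mylk level of the dextran libraries to the lowest Myl9 level, with smooth muscle markers at 71.6 CPM and stroma markers at 28 CPM. Of its smooth muscle marker sum, 50.1 CPM was Synm and 19.7 CPM was Acta2. Synm stood at 31.5, 31.8, 50.1 and 19.5 CPM in the dextran libraries, so their sums were in large part Synm. Smooth muscle markers summed to 37.6 to 80.5 CPM with dextran and 34.4 to 209 CPM in controls.

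**Figure D5:**
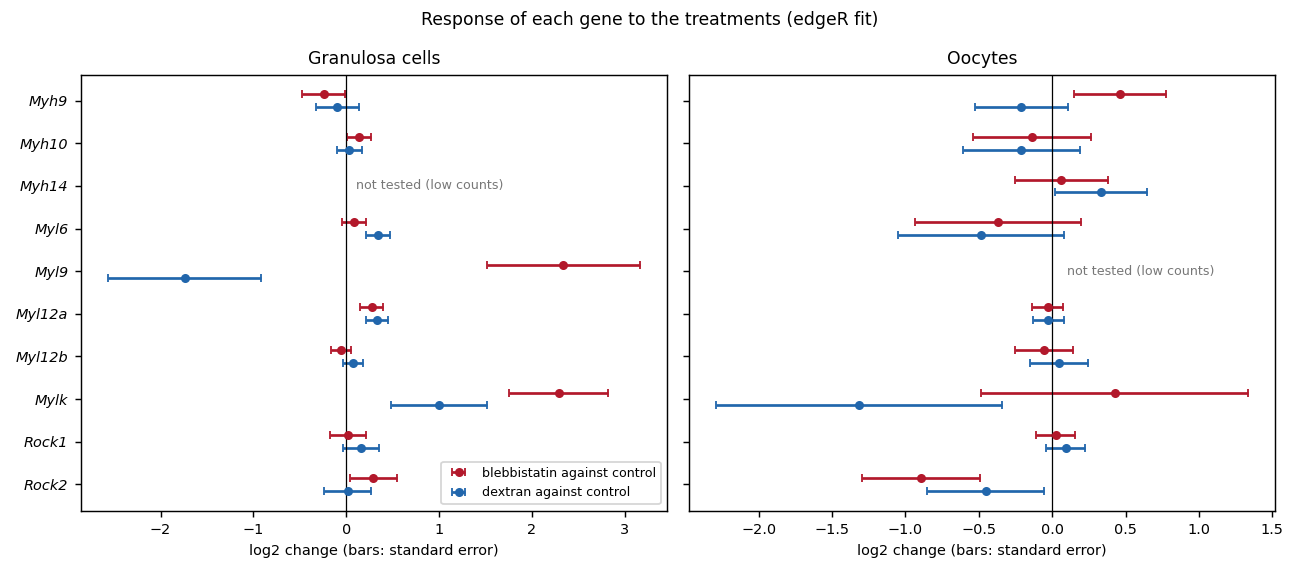
Log2 change of each gene with blebbistatin (red) and with dextran (blue) against control, in granulosa cells (left panel) and oocytes (right panel), with the standard error of the edgeR fit as bars; both treatments share their control libraries. Mylk and Myl9 have blebbistatin changes of 2.29 and 2.34 in granulosa cells, and the other tested genes there lie between -0.24 and 0.34 under either treatment.

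In oocytes no gene of the 9 tested was called with either treatment, and neither was any of the 16749 genes tested by edgeR (0% for both; 686 at an unadjusted p under 0.05 with blebbistatin and 890 with dextran, and 16 and 4 by DESeq2). Myl9 did not pass the filter there. No gene of the 9 had treated libraries all above or all below the controls, beside 3.07% of all genes with blebbistatin and 2.80% with dextran. Rock2, 1 of 9 with an unadjusted p under 0.05 beside 4.10% of all genes, stood at 2.62, 5.02, 1.71 and 6.29 CPM in blebbistatin oocytes and at 7.10, 11.6, 7.83 and 4.64 CPM in controls. The groups overlapped through blebbistatin replicates 2 and 4 and control replicate 4, and the log2 change was -0.89 ± 0.40 (edgeR unadjusted p = 0.0424, adjusted p = 1.00). That change ran from -1.20 to -0.63 over 15 alternatives, and its unadjusted p was not under 0.05 in all of them. The highest control, replicate 2 at 11.6 CPM, was the library with the most granulosa markers. Dextran oocytes had 7.86, 4.67, 3.58 and 4.73 CPM of Rock2, a log2 change of -0.45 ± 0.40. With dextran 5.31% of all genes had an unadjusted p under 0.05 and none of the 9 did. Rock1 had log2 changes of 0.03 ± 0.13 for blebbistatin and 0.09 ± 0.13 for dextran and 95% intervals of -0.23 to 0.28 and -0.17 to 0.35.

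The heavy chains of oocytes showed log2 changes of 0.46 ± 0.32 for Myh9, -0.14 ± 0.40 for Myh10 and 0.06 ± 0.32 for Myh14 with blebbistatin. With dextran they were -0.21 ± 0.32, -0.21 ± 0.40 and 0.33 ± 0.31 for the same genes. Myl12a had 95% intervals of -0.24 to 0.18 with blebbistatin and -0.24 to 0.18 with dextran, the narrowest of the 9 tested. The directions for Myh10 and Myl6 in oocytes rested on control replicate 2, the library with the most granulosa markers. Without it Myh10 had log2 changes of 0.44 with blebbistatin and 0.37 with dextran, and Myl6 of 0.29 and 0.18, against -0.37 ± 0.57 and -0.49 ± 0.57 with all libraries.

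Whether the treatments acted differently in oocytes and granulosa cells was asked with an interaction term in the joint fit of 24 libraries. None of the 10 genes was called for blebbistatin, where 10 of 20601 genes were (0.0485%), or for dextran, where 0 were by edgeR (0%; 1912 at an unadjusted p under 0.05, and 243 by DESeq2). Myh14 and Myl9, which passed the filter on low counts in 1 cell type only, are left out of the counts that follow. For blebbistatin, Mylk, Myl12a and Rock2 had an unadjusted p under 0.05, 3 of the 8 others beside 11.3% of all genes in the joint fit. The oocyte minus granulosa difference in log2 change was -1.99 ± 0.95 for Mylk, -0.37 ± 0.15 for Myl12a and -1.29 ± 0.51 for Rock2, with edgeR adjusted p of 0.441, 0.369 and 0.361. Without oocyte control replicate 2 the difference was -0.91 for Mylk, -0.15 for Myl12a and -0.82 for Rock2, and without granulosa control replicate 1 or 3 it was -0.08 or -0.10 for Myl12a. For dextran, Mylk and Myl12a had an unadjusted p under 0.05, 2 of the 8 beside 9.28% of all genes, with differences of -2.48 ± 1.05 and -0.45 ± 0.15 (edgeR adjusted p = 0.448 and 0.336). Leaving out single libraries gave dextran differences of -3.57 to -1.51 for Mylk and -0.55 to -0.19 for Myl12a, the last without granulosa dextran replicate 3. The median over all genes was -0.10 for blebbistatin and -0.16 for dextran, and -0.01 and -0.04 with RLE size factors.

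A list of 40 genes around the motor was read in the same fits, holding the RhoA switch, myosin phosphatase, other light chain kinases, calmodulin, LIM kinase and cofilin, chaperones and further myosin II chains. In granulosa cells 38 were tested, and 0 were called with blebbistatin or with dextran. With blebbistatin the smallest unadjusted p fell to Rnd3, a GTPase without GTP hydrolysis that opposes RhoA and ROCK signalling, at 17.4 ± 3.92 CPM against 7.87 ± 1.28 CPM in controls (log2 change 1.14 ± 0.33, edgeR adjusted p = 0.247). The next was Cdc42bpa, the kinase MRCK alpha, at 69.9 ± 16.2 CPM against 51.8 ± 3.23 CPM in controls (edgeR adjusted p = 0.361). With dextran they were Rhob and Rhoa, both small GTPases. Rhob stood at 102 ± 33.4 CPM with dextran and 31.2 ± 6.44 CPM in controls (log2 change 1.73 ± 0.31, edgeR adjusted p = 0.295). Rhoa, the main activator of both ROCK kinases, stood at 315 ± 7.95 CPM with dextran and 240.4 ± 9.64 CPM in controls (log2 change 0.40 ± 0.08, edgeR adjusted p = 0.479). All blebbistatin libraries lay above all controls for 1 of the 38, Rnd3, beside 2.53% of all genes tested. All dextran libraries did so for 4 of the 38, Rhob and Rhoa among them, beside 2.47% of all genes.

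In oocytes 33 of the 40 were tested and 0 were called. The smallest unadjusted p with blebbistatin were 0.0580 for Pak1, a p21-activated kinase, at 173 ± 16.2 CPM against 215 ± 20.3 CPM in controls, and 0.0596 for Ppp1cb, the catalytic subunit of myosin phosphatase, at 12.9 ± 1.29 CPM against 22.9 ± 16.6 CPM in controls. With dextran they were 0.00612 for Ppp1r12c, a targeting subunit of that phosphatase, at 0 in all dextran libraries against 0.746 ± 0.448 CPM in controls, and 0.0441 for Cdc42bpa, at 148 ± 26.6 CPM against 123.5 ± 28.5 CPM in controls. Ppp1cb averaged 109.6 ± 10.5 CPM in control granulosa cells. The part of granulosa RNA in its control oocyte level, where replicate 2 held the most granulosa markers, was not tested. The interactions called 0 of the 40.

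Between control oocytes and control granulosa cells, 16 of the 40 were higher and 17 lower in oocytes (77.3% of all genes were called). Some of the 40 passed the filter on low counts in a single cell type only. The 6 with the smallest adjusted p lay on both sides. Cit, citron kinase of the cleavage furrow, averaged 148.5 ± 13.4 CPM in control oocytes and 15.8 ± 2.18 CPM in control granulosa cells, a log2 change of 3.24 ± 0.16 (edgeR adjusted p = 1.93e-13). Limk2, a LIM kinase that acts on cofilin downstream of ROCK, had a log2 change of 2.98 ± 0.18, and Pak1 one of 8.17 ± 0.72, at 215 ± 20.3 CPM in control oocytes and 0.745 ± 0.261 CPM in control granulosa cells. Lower in oocytes were the calmodulin gene Calm3 (log2 change -2.51 ± 0.27), the p21-activated kinase Pak2 (-2.79 ± 0.33) and the myosin chaperone Unc45a (-2.35 ± 0.32). Pak1 and Pak2, like Rock1 and Rock2, thus stood on opposite sides of the comparison. Myh11, chosen for mention after its values were seen, averaged 25.6 ± 4.77 CPM in control oocytes and 0.688 ± 0.407 CPM in control granulosa cells (log2 change 5.21 ± 1.05, edgeR adjusted p = 0.000148).

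Genes of like pattern were sought by the root mean square difference of centred log2(CPM + 1) values, as a description with no test. Over the 24 libraries and 11665 genes averaging 5 CPM or more, the nearest gene to Myl9 was Cygb, cytoglobin (0.71), followed by Tagln, transgelin (0.78), and Cnn2, a calponin (0.79). The nearest to Mylk was Cald1, the actin- and myosin-binding caldesmon (0.45), followed by Parva, a focal adhesion parvin (0.62), and Vim, the intermediate filament vimentin (0.65). Over the 12 granulosa libraries alone, Tpm2, a tropomyosin, was nearest to Myl9 (0.63) and Tpm1, another tropomyosin, to Mylk (0.45). The nearest genes to the other members were Hdac3 for Myh9 (0.24), Mcfd2 for Myh10 (0.23), Rnaset2b for Myh14 (0.23), Smim13 for Myl6 (0.38), Ddx39b for Myl12a (0.16), Vdac1 for Myl12b (0.18), Nup54 for Rock1 (0.19) and Dync1li2 for Rock2 (0.34). Values over 24 libraries are set mostly by the gap between the cell types.

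Promoter windows of 250 bases before to 50 bases after the start, from RefSeq on GRCm38.p6, were matched for 9 of the 10 genes, giving 10 windows. The CArG box, the site of serum response factor found in many actin and smooth muscle genes, was searched on both strands. It was found in the Myl9 window, 161 bases before the start, and in 1 of the 2 Myl6 windows, 50 bases before the start, and in 535 of 32851 promoters (1.63%). The 2 windows are shown 5′ to 3′ on the strand of the gene because these 2 genes share the box while Myl9 alone of them was separated from controls by blebbistatin in granulosa cells, with the CArG box in capitals.
Myl9, chr2:156775214-156775513, plus strand: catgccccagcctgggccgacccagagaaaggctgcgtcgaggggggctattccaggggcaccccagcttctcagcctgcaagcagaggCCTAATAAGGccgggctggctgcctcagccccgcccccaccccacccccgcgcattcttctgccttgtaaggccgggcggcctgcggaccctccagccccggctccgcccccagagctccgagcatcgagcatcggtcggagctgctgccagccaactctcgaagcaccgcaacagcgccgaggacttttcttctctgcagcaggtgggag
Myl6, chr10:128492960-128493259, minus strand: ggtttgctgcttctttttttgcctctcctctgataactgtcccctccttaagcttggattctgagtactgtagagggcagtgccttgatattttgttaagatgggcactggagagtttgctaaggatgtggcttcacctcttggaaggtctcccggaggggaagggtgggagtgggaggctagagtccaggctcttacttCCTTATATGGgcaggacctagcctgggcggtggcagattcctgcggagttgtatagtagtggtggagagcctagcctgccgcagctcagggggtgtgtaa

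The Mylk window held no CArG box. The TEAD site CATTCC was in 3 of the 10 windows, those of Myh10, Mylk and Myl12a, and in 14.7% of all promoters, and the GC box GGGCGG was in 7 of the 10 and in 35.7% of all, both read on either strand. No match of one motif overlapped a match of another in the 10 windows. A match describes these letters only.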

How the data were processed

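RNA was measured in 24 libraries, 6 groups of 4. The authors deposited estimated counts from salmon in 2 tables, 1 per cell type, per the labels. Reads were processed on GRCm39, as the submitters' processing notes state. The aligner, annotation release and strand setting are not given in the sources at hand. Per the labels' protocols, cDNA was amplified over 15 PCR cycles. Expected counts were rounded to whole numbers, with 0 sample columns unused. Each cell type was fitted over its 12 libraries with edgeR 4.0.16 in R 4.3.3 (filterByExpr, TMM, glmQLFit with robust estimation, glmQLFTest), and both cell types together for differences between them. The adjusted p is Benjamini-Hochberg over all genes tested, with a threshold of 0.05. Sequences and lengths come from RefSeq GRCm38.p6 and GENCODE M21, an older build than that of the counts. Steps were tested on simulated data. No replicates were duplicates, since their counts differed by a chi-square of at least 12.4 per gene. Depth limits counting error only, as reads carry no molecular identifiers.

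The 10 genes and all lists were chosen with earlier results of these data known. Named genes are the 10 and, per comparison, up to 6 called regulators or the 2 of smallest p. Alternatives were DESeq2 1.42.0, limma 3.58.1 voom, other scaling, no filter, a replicate block, only the groups compared and libraries left out.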

Additional observations from a re-analysis of the deposited data

Results flagged for a closer look

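In 57 sets of 4 libraries (a gene in a group), 9 had 1 library whose gap to the nearest other exceeded Dixon's 95% critical share of the range. Chance flags about 1 set in 20 where values are normally distributed, which CPM need not be. A set with counts in a single library and 0 in the rest is always flagged, so that rate does not hold for such sets. For Myl6, dextran oocyte replicate 3 stood at 26.7 CPM, against 6.67 CPM in the next highest, and dextran granulosa replicate 1 was low at 268.6 CPM, against 335.6 CPM in the next lowest. Oocyte control replicate 2, the library with the most granulosa markers, was high for Mylk at 1.42 CPM (next 0.439 CPM) and for Rock1 at 241.7 CPM (next 195.3 CPM). Rock1 was also high in dextran granulosa replicate 3 at 55.2 CPM (next 43.5 CPM), the library with the highest Mylk among dextran libraries. Myh9 was high in dextran oocyte replicate 1 at 4.66 CPM (next 3.71 CPM). The other flags are single libraries with counts where the rest of the group was at 0: Myh14 in granulosa control replicate 1 (0.212 CPM) and dextran replicate 4 (0.0478 CPM), and Myl9 in blebbistatin oocyte replicate 2 (0.509 CPM).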

How the results depend on the processing

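The difference between control oocytes and control granulosa cells kept its call in all 15 alternatives for the 8 genes that passed the low-count filter in both cell types. It also kept its direction for each of them and for Myh14. The log2 change of Myl9 was not followed there. In the treatment comparisons and interactions no gene of the 10 was called in any alternative except Mylk with blebbistatin in granulosa cells under DESeq2 (1 gene called). Counts over all genes moved more. With blebbistatin in granulosa cells (1 gene called) they were 377 by DESeq2, 23 with no filter on low counts, 0 with only the 2 groups compared, 26 without blebbistatin replicates 1 and 2, 0 without replicates 1 and 3, and 0 to 115 without single libraries. With dextran in granulosa cells (0 called) they were 42 by DESeq2, 4 with no filter and 1 with only the 2 groups. In oocytes (0 called) they were 16 by DESeq2 and 4 with no filter for blebbistatin, and 4 by DESeq2 for dextran. The interaction called 382 by DESeq2 and 18 by limma voom for blebbistatin (10 called), with 2 to 103 without single libraries, and 243 by DESeq2 for dextran (0 called), with 0 to 91 without single libraries. The replicate number as a block gave 0 calls with blebbistatin in granulosa cells and 0 in the blebbistatin interaction. With that block the log2 changes with blebbistatin in granulosa cells were 2.20 for Mylk and 2.71 for Myl9. Deviations of same-numbered treated and control granulosa libraries correlated at 0.021 to 0.175 for blebbistatin and -0.179 to 0.321 for dextran. In oocytes they correlated at -0.039 to 0.175 and -0.115 to 0.097. Libraries of different number were not correlated for comparison, so whether the numbers pair the libraries was not settled.

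Under the alternatives 1044 log2 changes of the 10 genes were followed. Myl9 in the comparisons across cell types, Myh14 in the interactions and genes that failed the filter in the main fit were left out. Of the 1044, 62 had the opposite sign, all of uncalled genes. In 49 of them the value moved by no more than its standard error, 12 with no library left out, such as Rock1 with blebbistatin in granulosa cells (0.02; -0.02 by limma voom). The other 13 moved further, each when 1 library was left out. Without oocyte control replicate 2 the log2 changes in oocytes were 0.44 (Myh10; lowest of single-library removals -0.49) and 0.29 (Myl6; -0.62) with blebbistatin and 0.37 (Myh10; -0.40) and 0.18 (Myl6; -1.35) with dextran. The interaction values were then 0.48 (Myh10; lowest -0.79), 0.38 (Myl6; -0.88), 0.32 (Myl12b; -0.28) and 0.22 (Rock1; -0.20) for blebbistatin and 0.39 (Myh10; -0.63) and 0.18 (Myl12b; -0.33) for dextran. Without granulosa control replicate 1 they were 0.18 (Myl12b) and 0.21 (Rock1) for blebbistatin, and without control replicate 3 0.16 (Myl12b). The cause was not tested. Low counts limit Myh14 in granulosa cells and Myl9 and Mylk in oocytes.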
